A study of Mus musculus with 18 samples.

Results

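The comparison described here is that of wild-type (WT) mouse mast cells at level 20 with WT mast cells at level 0. It takes 6 of the 18 libraries of the series, 3 at each level, chosen by genotype and level in the library names. The cells were bone marrow-derived mast cells (BMMC), which are grown in culture from marrow progenitors. The WT cells carried Sirt6 flox/flox alleles without Cre, and the rest of the series holds WT cells at level 60 and cells labelled KO (LysM-Cre; Sirt6 flox/flox) at all 3 levels. LysM-Cre drives recombination from the lysozyme M promoter of myeloid cells. The labels name LPS as the treatment of the level 20 and level 60 libraries and no treatment at level 0, while the series title names the high affinity IgE receptor FcεRI. The unit of the level is not given in the sources used here. Each library name opens with a number (4120, 414 or 6110) that recurs at every level, and the labels do not say what the numbers stand for, so the spread between libraries may be technical in part.

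Mast cells are tissue-resident effector cells of allergy that store histamine and proteases in granules. Engagement of FcεRI, or of the LPS receptor TLR4, starts kinase cascades that activate the MAPK, NF-κB, NFAT and CREB pathways. The first transcripts to appear after such stimuli are the immediate early genes, which need no new protein for their induction and code for transcription factors, cytokines and inhibitors of the same cascades.

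The 6 libraries held 20026054 to 33306602 counts. Both libraries of number 4120 stood apart from the others: mitochondrial genes took 38.9% of their counts at level 0 and 33.6% at level 20, the first principal component (50.1% of the variance) separated them, and Tpsb2, a granule tryptase, was at 184 and 263 CPM (the deposited counts scaled to library size) against 3991 to 7204 in the other 4. Numbers 414 and 6110 were set apart by the second component (22.5%), and levels 0 and 20 only by the third (16.6%). The mitochondrial share went from 17.7% to 6.53% in number 414 and from 11.1% to 12.2% in number 6110. Defining mast cell transcripts were abundant in all 6 libraries: Fcer1a, the IgE-binding chain of the receptor, was at 1142 to 2861 CPM, Kit, the receptor for stem cell factor, at 950 to 1654, and Ms4a2, the receptor's β chain, at 1056 to 1465. Summed levels of other cells' markers differed widely between the lists. The 11 erythroid and megakaryocyte markers summed to 5492 to 5965 CPM at level 0 and 4473 to 5432 at level 20, nearly all from Itga2b, an integrin chain, at means of 5513 and 4801 CPM, and Ppbp was at 0 counts. The 8 basophil markers summed to 237 to 337 CPM at level 0 and 229.6 to 339.8 at level 20, mostly from Cd200r3 and Il3ra, with means of 1.86 and 2.28 CPM for the basophil protease Mcpt8. The 10 stromal and endothelial markers summed to 159 to 336 CPM at level 0 and 222 to 323 at level 20, mostly from Pecam1, and Col1a2 was at 0 counts. The sums were 7.20 to 15.6 CPM over 11 dendritic cell markers, 1.57 to 17.4 over 8 B cell markers, 1.53 to 5.21 over 15 neutrophil markers and 1.38 to 2.72 over 11 T cell markers. The 16 macrophage and monocyte markers summed to 39.9 to 211 CPM at level 0 and 46.5 to 190 at level 20, mostly from Cd68, and Marco and Msr1 were at 0 counts. None of the tested markers in these lists was called.

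At level 20, 103 genes were called higher and none lower, out of 17159 tested, in a fit that did not pair the libraries by number. A fit that paired them also called genes lower, as given below. The 103 genes were led by cytokines and chemokines (Il13, Tnf, Ccl4, Ccl3, Il6), immediate early transcription factors (Fos, Egr2, Nr4a1, Atf3, Jun), the MAPK inhibitor Dusp1 and the nuclear IκB protein Nfkbid. Their median log2 fold change was 2.71, with a range from 1.01 for Hey2 to 8.73 for Il13, against a median of −0.02 over all genes tested. Of the 103, 73 rose at least 4-fold and 42 at least 8-fold. The called share was 0.600% of the genes tested. These counts are from edgeR's quasi-likelihood test with Benjamini-Hochberg adjusted p under 0.05 in a model of all 18 libraries that takes a mean for each group. At an unadjusted p under 0.05 this test had 626 genes higher and 364 lower of the 17159. These unadjusted counts make no allowance for the number of tests and are not calls. DESeq2 called 182 higher and 18 lower.

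**Figure D1:**
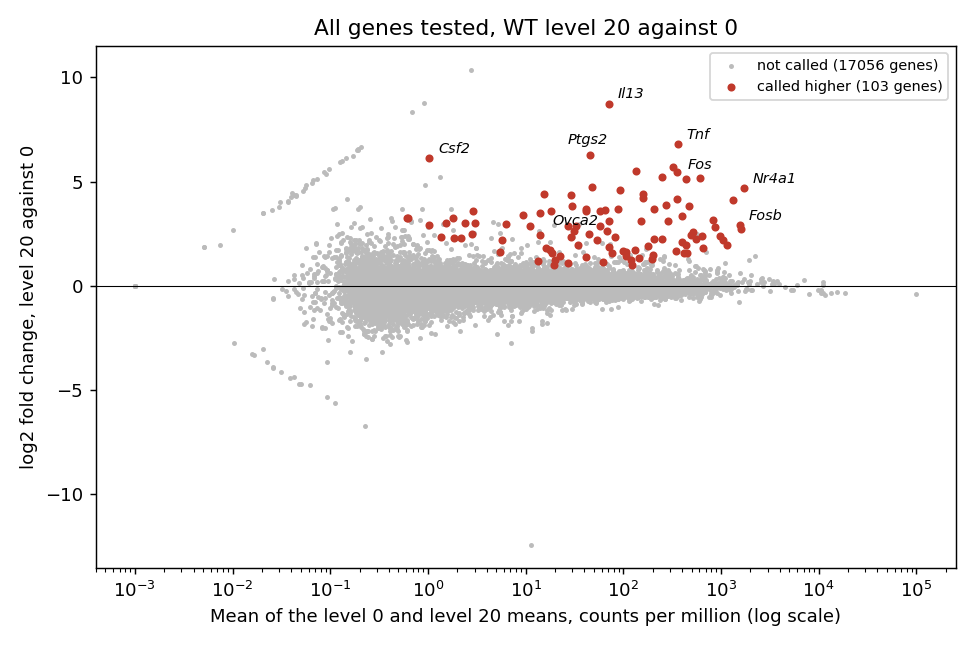
Each point is a gene tested in WT cells, by the mean of its 2 group means in CPM (log axis, floor 0.001) and its log2 fold change, level 20 against 0. The 103 called genes (red) all lie above 0, and the diagonal streaks of grey points are genes with no count in 1 of the groups, whose fitted fold change is no bound.

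In all 103 called genes every level 20 library was above every level 0 library, against 5.46% of the genes tested, and the rise was seen within each of the 3 numbers, against 18.5%. The test that chose the 103 genes compared these same libraries, which in large part fixes both counts. Libraries of the same number deviated together from their group means, with correlations of 0.763, 0.622 and 0.672. When the number was therefore fitted as a block in the 6 libraries, 305 genes rose (2.01% of the 15157 tested) and 108 fell (0.713%), and all 103 genes were among the 305. The fit without the block was also run with every library of a number left out, WT and KO at every level, so with fewer libraries in each group. It called 22 genes without number 4120, all higher, 28 without number 414 and 83 without number 6110. The results below are from the fit without the block unless the block is named.

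The largest rise was that of Il13, the type 2 cytokine of allergic inflammation. Il13 was at 0.554, 0.134 and 0.376 CPM at level 0 in numbers 4120, 414 and 6110, and at 109, 191 and 127 CPM at level 20. The level 0 values rest on 25 counts in all, and the groups were far apart in every number. Its log2 fold change was 8.73 ± 0.88 (SE, edgeR's quasi-likelihood test with adjusted p = 4.23e-05, n = 3 per group). Tnf, a pro-inflammatory cytokine that mast cells both store and synthesise, rose from 4.37, 4.26 and 10.7 CPM to 354, 938 and 860 CPM. That is 110-fold (log2 6.79 ± 0.68, edgeR adjusted p = 4.23e-05), and the rise was largest in number 414. Il4, the neighbour of Il13 on chromosome 11 with 12658 bases between the genes, rose far less, from 12.5, 10.8 and 12.2 CPM to 38.2, 21.2 and 25.5 CPM.

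Of 19 cytokine genes tested, 9 rose (Il13, Tnf, Csf2, Il6, Lif, Il1b, Osm, Csf1 and Il4), with a list median of 2.53, and with the block 13 rose. Il6, an acute-phase cytokine, went from 9.16, 5.57 and 6.95 CPM to 158, 262 and 109 CPM. Lif, a member of the same cytokine family, went from 57.2, 17.96 and 27.5 CPM to 632, 584 and 308 CPM. Osm, which lies 16542 bases from Lif on chromosome 11, had a log2 fold change of 3.11. Csf2, which codes for GM-CSF, had 2 level 0 libraries at 0 and stayed below 3 CPM at level 20, so its fold is poorly determined. Areg, an epidermal growth factor family ligand, had 0 counts at level 0 and 168 counts at level 20 (1.17, 1.95 and 2.38 CPM), at least 47.6-fold higher against 3 counts over the level 0 group. Its adjusted p was 0.0948 in edgeR and 0.000173 with the block. Hbegf, another ligand of that family, had a log2 fold change of 2.49 ± 0.24 with the block (edgeR adjusted p = 6.26e-05) and was not called without it.

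Of 10 chemokine genes tested, 4 rose. They were Ccl3 and Ccl4, which attract monocytes and T cells, and Ccl2 and Ccl7, which attract monocytes. Ccl3 went from 21.0, 24.0 and 28.4 CPM to 769, 1077 and 729 CPM, a log2 fold change of 5.13 ± 0.47. Ccl4 went from 10.3, 8.93 and 17.4 CPM to 411, 958 and 543 CPM, and Ccl7 from 18.3, 4.57 and 20.0 CPM to 323, 333 and 248 CPM. In each of the 3 the lowest level 20 library was many times the highest level 0 library. Ccl3 and Ccl4 overlap by 754 bases in the annotation, so some reads could be shared between them. Ccl2 was already at 97.9 to 277 CPM at level 0 and rose by 2.37 ± 0.39 on the log2 scale. With the block 6 chemokines rose, the additional genes being Ccl1 (7.81 ± 4.79 to 62.1 ± 11.4 CPM, SD, n = 3) and Cxcl2 (0.0522 ± 0.0904 to 1.83 ± 0.780 CPM).

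**Figure D2:**
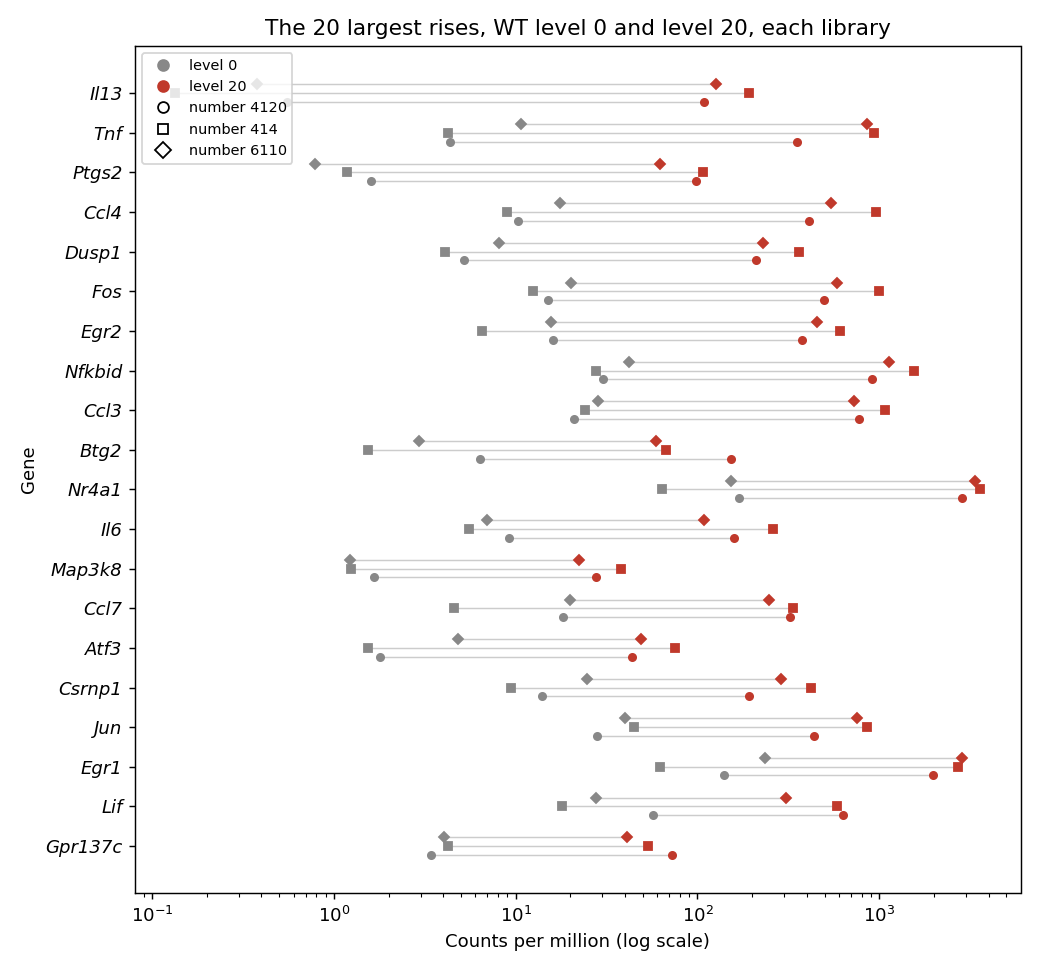
CPM (log axis) of the 20 largest rises in each WT library at level 0 (grey) and level 20 (red), with a marker shape per number and a line joining libraries of 1 number. In each gene the 3 red points lie to the right of the 3 grey points, from Il13 (8.73 on the log2 scale) to Gpr137c (3.82).

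Among 11 FOS, JUN and ATF genes, which code for the subunits of AP-1 and related dimers, 7 rose (Fos, Atf3, Jun, Fosb, Maff, Junb and Fosl2) and the list median was 2.71. Fos went from 15.1, 12.5 and 20.1 CPM to 495, 995 and 589 CPM, 43.6-fold, with the second smallest p of all genes (edgeR adjusted p = 1.38e-06). Jun went from 27.9, 45.0 and 39.7 CPM to 435, 852 and 754 CPM. Fosb was already at 319 to 434 CPM at level 0 and reached 2034 to 3751 CPM. Of the members not called, Batf was at 52.7 ± 9.73 CPM at level 0 and 41.3 ± 7.32 at level 20, and Fosl1 was below 1 CPM at both levels. Jund, at 369 ± 214 and 715 ± 91.6 CPM, rose with the block (edgeR adjusted p = 0.0440).

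The zinc finger factors of the EGR family rose together with the NR4A orphan nuclear receptors. All 4 EGR genes and all 3 NR4A genes were called, while Nab1 and Nab2, whose products repress EGR factors, were not (Nab2 was at 213 ± 103 and 321 ± 144 CPM). Egr2 went from 16.1, 6.55 and 15.7 CPM to 378, 609 and 455 CPM, a log2 fold change of 5.24 ± 0.49. Egr1 went from 141, 62.3 and 235 CPM to 1979, 2698 and 2861 CPM. Nr4a1 went from 169, 64.2 and 153 CPM to 2851, 3592 and 3378 CPM, 25.5-fold, and Nr4a2 from 47.6, 68.4 and 71.4 CPM to 564, 1400 and 675 CPM. The spread of Nr4a3 at level 20 was wider (382, 936 and 226 CPM, from 51.9, 20.4 and 108). On the per-length TPM scale, Junb (2634 ± 1152 TPM, SD, n = 3), Nr4a1 (2292 ± 867), Ccl2 (2255 ± 638), Rgs1 (2205 ± 703) and Ccl3 (1915 ± 949) had the highest mean levels of the 103 genes at level 20. These 5 do not differ beyond their spread. The granule protease Cpa3 was at 12810 TPM.

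Of 25 other early genes (IER, BTG, KLF and similar) 7 rose, and with the block 14 rose and Gadd45a fell. Btg2, which restrains cell division, went from 6.33, 1.54 and 2.94 CPM to 153, 67.0 and 59.3 CPM. Ier2 went from 124, 64.8 and 312 CPM to 1288, 1197 and 1985 CPM. Csrnp1, a nuclear protein also known as axin up-regulated gene, rose by 4.23 ± 0.52 on the log2 scale. The genes that rose with the block alone were Ier3 (log2 2.72 ± 0.35), Errfi1, Klf2, Plk2, Sgk1, Klf6 and Srf. Of 13 CREB targets 8 rose, with a list median of 1.80, among them Dusp1, Nr4a1, Sik1 (a kinase that holds CREB coactivators in check), Rgs2 and Per1.

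Genes for inhibitors of signalling cascades rose in several families, while the activity of the cascades was not measured. Of 10 MAPK phosphatases 5 rose: Dusp1, Dusp5, Dusp8, Dusp6 and Dusp4. Dusp1, which inactivates p38 and JNK, went from 5.17, 4.10 and 8.11 CPM to 209, 360 and 229 CPM (log2 5.52 ± 0.55, edgeR adjusted p = 4.23e-05). Dusp6, which acts on ERK, went from 10.46, 6.71 and 25.2 CPM to 83.1, 109 and 116 CPM. Of 5 Sprouty and SPRED genes, which restrain receptor signalling to ERK, Spry1 and Spry2 rose. Map3k8, which is no inhibitor but a kinase that links NF-κB signalling to ERK, went from 1.66, 1.24 and 1.22 CPM to 27.6, 37.8 and 22.4 CPM.

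Of 13 genes in a list of NF-κB feedback genes and the IκB family 5 rose: Nfkbid, Nfkbiz, Nfkbia, Tnfaip3 and Tnfaip2. Not all members of this list are inhibitors. Nfkbid, a nuclear IκB protein, went from 30.4, 27.6 and 41.8 CPM to 915, 1549 and 1134 CPM, 36.1-fold. Nfkbia, the classical IκBα inhibitor, went from 10.4, 9.23 and 18.9 CPM to 145, 217 and 134 CPM. Tnfaip3, the ubiquitin-editing protein A20, spread widely at level 20, at 620, 1347 and 226 CPM from 80.4, 70.4 and 65.3. None of the 5 NF-κB subunit genes was called, and with the block Rel rose (28.3 ± 4.54 to 72.7 ± 29.4 CPM, edgeR adjusted p = 0.00309). Rela was at 97.7 ± 17.4 and 124 ± 9.49 CPM.

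Of 13 mRNA decay factors 3 rose: Zfp36, Zfp36l1 and Zc3h12a, whose products destabilise cytokine transcripts. Zfp36 went from 3.01, 3.26 and 11.6 CPM to 56.0, 60.7 and 117 CPM. Zc3h12a, the endonuclease regnase-1, changed less, from 29.7, 18.9 and 19.5 CPM to 54.8, 64.2 and 60.6. With the block Zfp36l2 was the fourth (157 ± 33.2 to 356 ± 25.0 CPM). Cish and Pim3 rose among 11 SOCS, CISH and PIM genes, and Socs3 rose with the block. Of 12 genes for NFAT, calcineurin and its regulators, Rcan1 alone was called, from 6.15, 5.91 and 14.1 CPM to 33.3, 75.3 and 54.0 CPM. Rcan1 codes for an inhibitor of calcineurin, and the other 11 had log2 fold changes from −1.11 for Rcan2 to 0.53 for Ppp3r1. Rgs1 and Rgs2, which shorten G protein signals, rose among 8 RGS genes.

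Genes of the receptors themselves and of the mast cell programme were not called. None of 14 genes for TLR4 and its adaptors passed, with a list median of −0.08. Tlr4 was at 27.4, 44.9 and 52.3 CPM at level 0 and 30.4, 39.1 and 48.1 at level 20. Cd14, its coreceptor, was at 0.269 to 1.88 CPM at level 0 and 0.336 to 2.07 at level 20. None of 16 FcεRI chain and proximal signalling genes passed (median −0.03), nor any of 13 granule proteases (median 0.26). Of 15 mast cell identity genes none passed, and with the block Hdc, the enzyme that makes histamine, rose (283 ± 153 to 650 ± 277 CPM, log2 1.26 ± 0.22, edgeR adjusted p = 0.00672).

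Single members of other programmes rose. Ptgs2, the inducible cyclooxygenase, was the only one of 10 eicosanoid genes called, from 1.60, 1.18 and 0.783 CPM to 97.6, 108 and 62.2 CPM, a log2 fold change of 6.27 ± 0.50 (edgeR adjusted p = 6.66e-06). Alox5, which makes leukotrienes, was at 509 ± 159 CPM at level 0 and 733 ± 38.8 at level 20 without being called. Cdkn1a was called among 20 cell cycle genes, Dnajb1 among 14 heat shock genes, Ppp1r15a among 17 genes of the integrated stress response and Srxn1 among 12 NRF2 targets. With the block Dnaja1 and Hmox1 joined the heat shock and NRF2 lists and Hk2 was called among 22 glycolysis genes. None of 17 interferon response genes and none of 20 cholesterol synthesis genes passed in either fit.

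**Figure D3:**
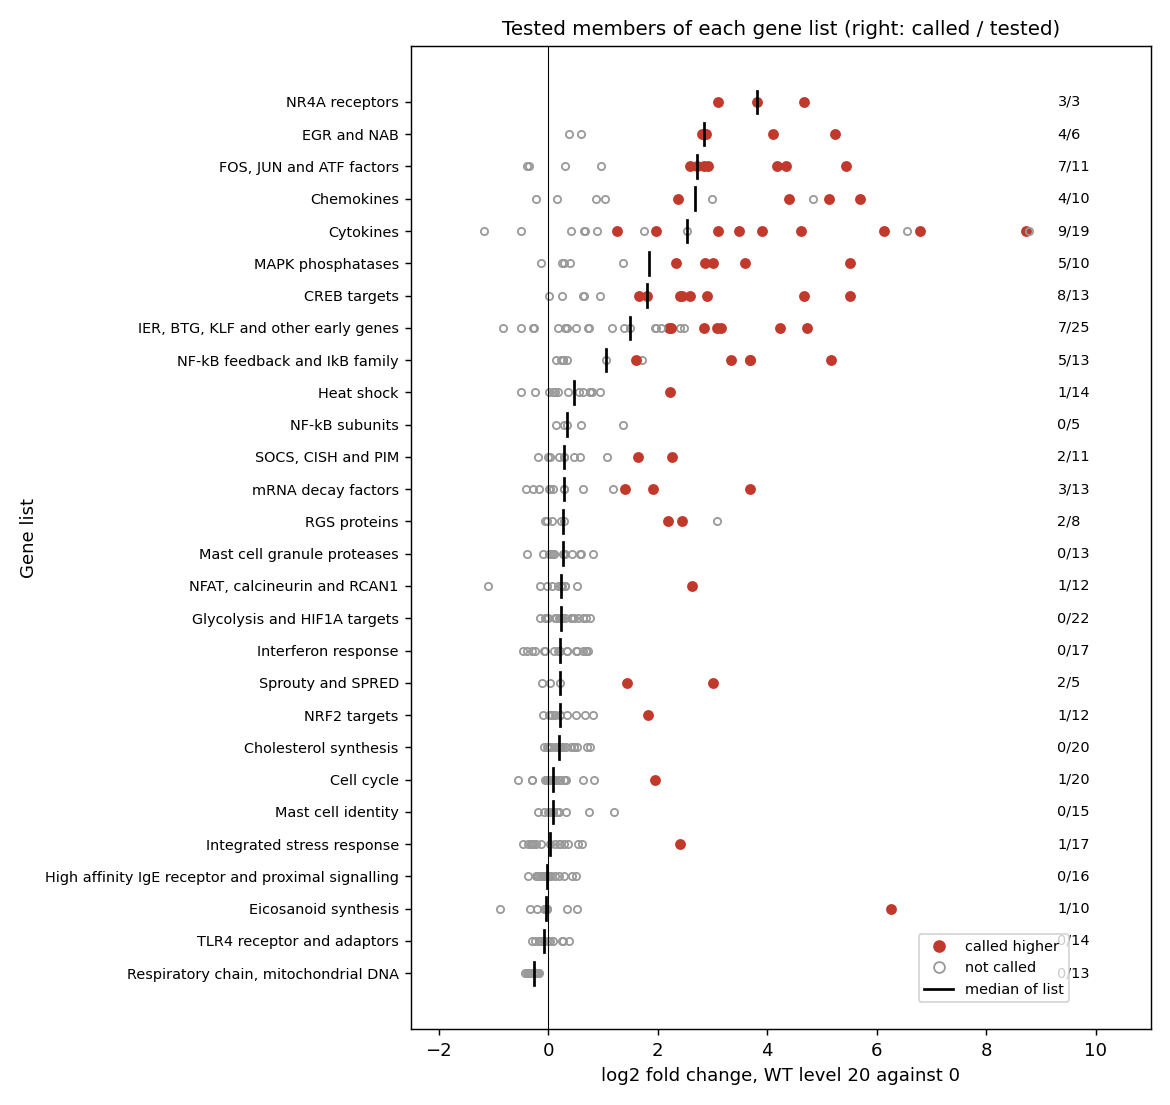
Log2 fold change, level 20 against 0, of each tested member of 28 gene lists, with called genes in red, others as open circles, the list median as a bar and the count called over tested at the right. The NR4A (3 of 3), EGR (4 of 6) and FOS, JUN and ATF (7 of 11) lists have the highest medians, the TLR4 and FcεRI lists have no red point, and the open circle beside Il13 is Areg, which had 0 counts at level 0.

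The 103 genes included 91 protein-coding genes and 12 others, among them 6 miRNA genes. The libraries were of mRNA, so counts on a miRNA gene are reads over the locus and not the mature miRNA. Mir212 and Mir132 lie 204 bases apart on chromosome 11, and 2196 bases separate Mir132 from the nearer end of Ovca2. Ovca2, which codes for a serine hydrolase, had the smallest p of all genes: it was at 19.7, 16.4 and 20.3 CPM at level 0 and 137, 102 and 114 CPM at level 20 (log2 2.64 ± 0.17, edgeR adjusted p = 1.06e-06). Mir212 went from 0.369, 0.235 and 0.407 CPM to 2.29, 3.94 and 3.51 CPM, and Mir132 from 0.492, 0.201 and 0.344 CPM to 1.48, 3.02 and 3.75 CPM. All 3 neighbours were higher in every level 20 library. Dph1, which overlaps Ovca2, was at 3.49 and 2.59 CPM and was not called. Mir27a and Mir24-2 lie 57 bases apart on chromosome 8 and rose by 2.89 and 2.28 on the log2 scale. The mature sequences from RefSeq (GRCm38.p6, plus strand) are shown for these 4 genes to mark the seed that miR-212-3p and miR-132-3p share, and capitals mark bases 2 to 8.
mmu-miR-212-3p (chr11:75173443-75173464): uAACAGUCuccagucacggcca
mmu-miR-132-3p (chr11:75173723-75173744): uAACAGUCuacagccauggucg
mmu-miR-27a-3p (chr8:84208727-84208747): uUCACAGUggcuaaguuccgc
mmu-miR-24-3p (chr8:84208875-84208896): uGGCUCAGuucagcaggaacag

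Several of the other short genes lie within abundant hosts whose reads they may share, since no source used here says whether the reads keep their strand. Mir6935 lies in Actg1, Snora31 in Tpt1 and the snoRNA LOC115487878 in Eif4a1. Snora31 went from 1.72, 1.65 and 1.53 CPM to 18.4, 15.5 and 18.2 CPM, while Tpt1 was at 2400 and 2734 CPM. Tulp2 overlaps Ppp1r15a by 729 bases, and both rose, by 2.44 and 2.40 on the log2 scale. The lncRNA Map2k3os went from 2.52, 2.42 and 3.35 CPM to 36.8, 25.5 and 38.2 CPM.

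Promoter letters were searched in RefSeq windows of GRCm38.p6 from 250 bases before to 50 after each start, on both strands; 71 of the 103 genes had 93 windows. The cyclic AMP response element TGACGTCA was in 9.68% of the windows of called genes, in 2.68% of those of tested genes and in 1.79% of all windows. The AP-1 letters TGANTCA were in 9.68%, 5.84% and 7.81%, the EGR letters GCGNGGGCG in 17.2%, 9.11% and 5.55%, and the NF-κB form in 5.38%, 1.74% and 1.63%. The serum response element was in 6.45%, 1.28% and 1.63%, and 3 genes held it, Egr2, Dusp5 and Zfp36. Egr2 held it in several windows, and by gene the shares were 4.23%, 1.54% and 1.81%. A gene with several starts counts once per window, and the TGACGTCA and TGANTCA patterns cannot match the same letters, while in Dusp5 the NF-κB form and a serum response element overlap. A match describes the letters and is neither a site nor a cause. The 250 bases before the start are shown for 6 of the called genes, with matches in capitals. TGACGTCA is marked in Dusp1 and Btg2 (with GCGNGGGCG in Btg2). The serum response element is marked in Egr2 and Zfp36 (with GCGNGGGCG in Zfp36), and the NF-κB form in Nfkbia and Tnfaip3 (with TGANTCA in Tnfaip3).
Dusp1 (chr17:26508473-26508722, minus strand): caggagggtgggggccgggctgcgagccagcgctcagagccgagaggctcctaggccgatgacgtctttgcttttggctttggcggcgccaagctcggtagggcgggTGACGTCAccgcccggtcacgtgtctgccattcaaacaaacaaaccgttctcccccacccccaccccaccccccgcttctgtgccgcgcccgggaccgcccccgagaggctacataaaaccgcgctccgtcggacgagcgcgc
Btg2 (chr1:134079156-134079405, minus strand): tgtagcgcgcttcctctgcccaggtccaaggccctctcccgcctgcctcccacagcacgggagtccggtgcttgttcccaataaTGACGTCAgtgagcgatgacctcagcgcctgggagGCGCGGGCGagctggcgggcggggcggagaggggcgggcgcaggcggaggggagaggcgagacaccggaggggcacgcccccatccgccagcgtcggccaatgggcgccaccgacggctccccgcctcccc
Egr2 (chr10:67537619-67537868, plus strand): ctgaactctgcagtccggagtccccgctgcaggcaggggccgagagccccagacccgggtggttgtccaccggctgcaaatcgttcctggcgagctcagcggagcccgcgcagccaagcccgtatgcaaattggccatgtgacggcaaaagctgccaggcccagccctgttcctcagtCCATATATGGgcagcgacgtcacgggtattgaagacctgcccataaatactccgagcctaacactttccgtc
Zfp36 (chr7:28379229-28379478, minus strand): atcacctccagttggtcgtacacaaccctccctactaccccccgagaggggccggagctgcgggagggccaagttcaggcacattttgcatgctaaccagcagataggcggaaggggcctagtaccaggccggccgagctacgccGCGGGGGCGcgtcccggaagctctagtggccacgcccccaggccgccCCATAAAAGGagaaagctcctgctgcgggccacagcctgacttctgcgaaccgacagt
Nfkbia (chr12:55492648-55492897, minus strand): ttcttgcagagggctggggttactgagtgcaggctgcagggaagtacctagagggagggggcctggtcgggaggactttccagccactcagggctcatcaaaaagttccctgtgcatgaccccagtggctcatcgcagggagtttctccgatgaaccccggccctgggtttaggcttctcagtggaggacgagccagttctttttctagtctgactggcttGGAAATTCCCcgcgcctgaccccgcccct
Tnfaip3 (chr10:19015411-19015660, minus strand): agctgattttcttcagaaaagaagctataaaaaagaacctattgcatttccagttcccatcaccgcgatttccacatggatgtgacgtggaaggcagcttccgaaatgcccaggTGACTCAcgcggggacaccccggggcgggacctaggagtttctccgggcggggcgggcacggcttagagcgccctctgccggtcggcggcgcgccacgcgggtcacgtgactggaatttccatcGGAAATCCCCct

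Falls were seen in the fit with the replicate block, and their number depended on the fit: the block for each culture in all 18 libraries called 17 lower, DESeq2 18 and limma-voom 26. In the fit with the replicate block they were smaller than the rises, with a median log2 fold change of −1.15 and a lowest of −2.49, and 61 of the 108 genes that fell were lncRNAs (56.5%, against 11.6% of the genes tested). By contrast 27 of the 305 genes that rose were lncRNAs (8.85%). All 108 were lower at level 20 in each of the 3 numbers (19.3% of all genes tested were), which the fit within numbers that chose them largely fixes. In 76 of them the groups did not overlap (4.35% of all genes tested had such a fall). Under the rule used for the largest rises, applied to this fit after its values were seen, 11 of the 15 largest falls were lncRNAs. The lncRNA 2900093K20Rik went from 33.3, 23.4 and 12.02 CPM to 10.0, 4.97 and 4.30 CPM (log2 −1.82 ± 0.19, edgeR adjusted p = 0.000165 with the block). The lncRNA 9130020K20Rik went from 39.3, 28.7 and 9.45 CPM to 11.04, 5.70 and 5.58 CPM. Number 4120 was highest at level 0 in both, and each number fell.

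Small nucleolar RNA host genes were among the falls, chosen here after their values were seen. Of 14 Snhg genes with Gas5 and Dancr (16 in all), 5 fell with the block and Snhg8 rose. Snhg7 went from 16.5, 14.4 and 8.11 CPM to 4.94, 3.66 and 3.63 CPM, and Snhg10 from 16.8, 9.87 and 5.70 CPM to 5.52, 1.68 and 2.81 CPM. Snhg20 went from 142, 105 and 60.2 CPM to 69.0, 31.4 and 40.7 CPM. Snhg8 went the other way, from 76.4, 47.7 and 67.97 CPM to 159, 124 and 138 CPM. Gas5 had a log2 fold change of −0.07 (edgeR adjusted p = 0.861). Protein-coding genes with large falls were Inafm1 (15.3, 5.74 and 35.9 CPM to 2.78, 2.07 and 7.84 CPM), Zscan30, a zinc finger gene, and Cpt1b, a carnitine palmitoyltransferase. In the fit with the block but without number 4120, 17 genes fell, all of them among the 108, and 12 of the 17 were lncRNAs. The mitochondrial share of counts fell in numbers 4120 and 414 from level 0 to 20, and its part in these falls was not tested.

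The libraries labelled KO give the same measure in samples outside the contrast. They entered the fit that called the 103 genes, through the filter, the scaling and the estimate of spread. The fit with the block, which called the 108 falls, did not use them. Sirt6 was at 11.99, 14.9 and 16.8 CPM in WT at level 0 and 10.7, 16.6 and 16.9 at level 20, and its mean was 16.7 ± 2.66 and 17.1 ± 3.47 CPM in the libraries labelled KO, so its level over the whole gene does not tell the genotypes apart. Whether the counts cover the deleted exons was not analysed here. All 103 risen genes had a positive log2 fold change there, with a median of 2.65, and 102 were higher in each of the 3 numbers labelled KO, against 13.7% of the genes tested. Of the 108 genes that fell, 107 had a negative mean difference in the libraries labelled KO (against 52.4% of the genes tested) and 60 were lower in each number (against 14.3%). In number 6110 labelled KO the log2 difference between levels 20 and 0 was 0.06 for 9330151L19Rik, 0.03 for Gm29948 and 0.02 for Snhg20 (3 lncRNAs named after their values were seen), against −1.93, −2.09 and −1.65 in number 4120. The mitochondrial share in the libraries labelled KO went from 10.1% to 5.54% in number 4120, from 27.0% to 8.17% in number 414 and from 4.07% to 5.25% in number 6110, and its part in these falls was not tested. Fos had log2 fold changes of 5.45 in WT and 6.58 in the libraries labelled KO, Tnf 6.79 and 8.46, Il13 8.73 and 7.89, and Dusp1 5.52 and 5.96. No gene passed a test of the difference between the genotypes in this response (edgeR). Of 17159 genes tested, 20 had a larger and 48 a smaller value in the libraries labelled KO at an unadjusted p under 0.05. The smallest p was that of Tagap1, at 72.8, 48.3 and 41.0 CPM in WT at level 0 and 49.1, 83.9 and 51.4 at level 20, against means of 8.55 and 66.1 CPM in the libraries labelled KO (difference in log2 fold change 2.76 ± 0.40, edgeR adjusted p = 0.0627).

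**Figure D4:**
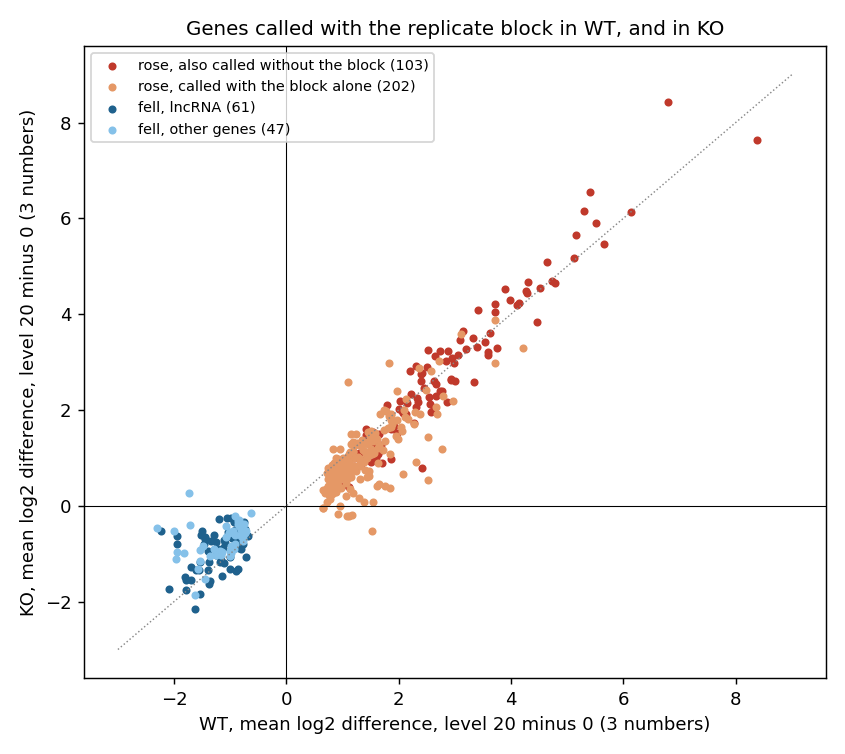
Mean log2 difference of level 20 minus level 0 over the 3 numbers in WT (horizontal) and in the libraries labelled KO (vertical) for the 305 genes that rose and the 108 that fell in WT with the replicate block, and the dotted line marks equal values. The 103 genes called without the block all lie above 0 on the vertical axis, and 107 of the 108 falls lie below it.

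At level 60 the median over the 103 genes of the group mean was 39.5 CPM, between 14.3 CPM at level 0 and 129 CPM at level 20. The comparison of level 60 with level 20 uses the same level 20 libraries, so its values are set beside the others as a description. Fos was at 15.9 ± 3.87, 693 ± 266 and 27.9 ± 8.34 CPM at levels 0, 20 and 60, and its log2 fold change from 20 to 60 was −4.63 ± 0.36. Il13 was at 0.354, 142 and 7.23 ± 7.28 CPM (SD), and Tnf was at 34.1 ± 29.9 CPM at level 60. The mitochondrial share at level 60 was 8.80%, 41.7% and 15.75% in numbers 4120, 414 and 6110. A fit of level 60 against 20 with this share as a covariate called more genes, as given in the last section. The part of the share in the levels of the genes named here was not tested. Nr4a3 was at 60.1 ± 44.45, 515 ± 373 and 627 ± 274 CPM (SD), and Srxn1, which repairs oxidised peroxiredoxins, at 288 ± 93.1, 1016 ± 138.8 and 1233 ± 478.7 CPM. Egr4 was at 48.7 ± 39.75 CPM at level 60 with 40.2 to 53.4 CPM at level 20. Nr4a3, Srxn1 and Egr4 were not called between levels 20 and 60, with log2 fold changes of 0.28 ± 0.59, 0.28 ± 0.31 and 0.03 ± 0.56 (SE). Over all genes 27 were called higher (0.157%) and 49 lower (0.286%) at level 60 than at 20. No gene was called in the 6 libraries with the block, and 585 were called when each culture had its own term in all 18.

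**Figure D5:**
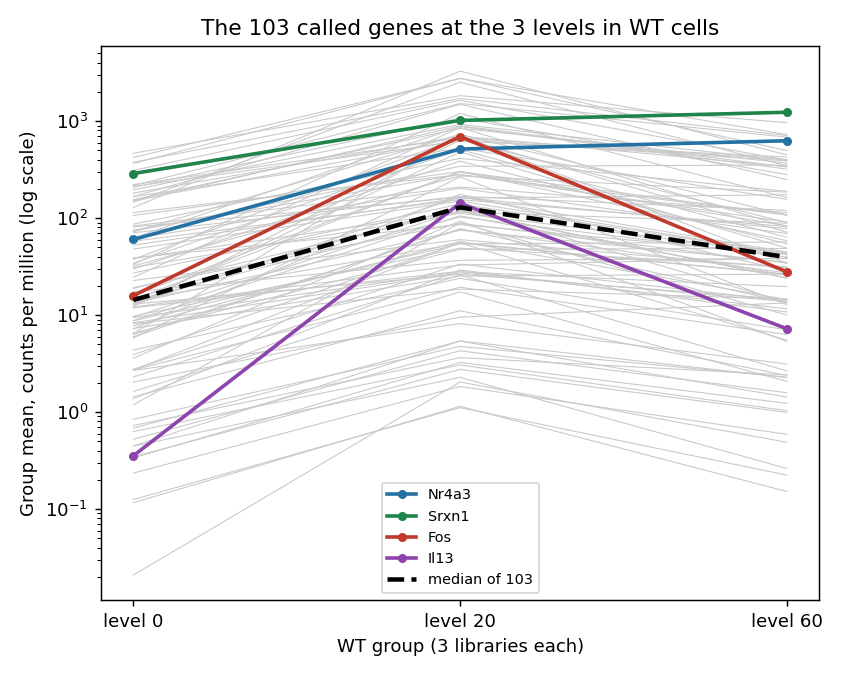
Group mean in CPM (log axis) of each of the 103 genes in WT cells at levels 0, 20 and 60 (grey lines), with 4 genes in colour and the median dashed. The median goes from 14.3 to 129 to 39.5. Fos is at 27.9 at level 60 against 15.9 at level 0, and Il13 at 7.23 against 0.354. The means of Nr4a3 and Srxn1 at level 60 are above those at level 20, but neither gene was called between these levels.

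In bulk RNA a change in the number of cells that carry a transcript and a change in its level per cell cannot be told apart. With 3 libraries per group, a gene that was not called may have changed.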

How the data were processed

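RNA was measured in mouse bone marrow-derived mast cells; per the labels' protocols, a TruSeq kit was used to prepare mRNA libraries. Among the tools in the submitters' processing notes are the aligner HISAT2 2.1.0 and StringTie 2.1.3b, with the build mm10. The authors deposited a table of 45777 genes with read counts that are whole numbers and not normalized. The FPKM and TPM values were computed by the authors from the same libraries, per the file headers; TPM served for levels between genes and for an alternative, and FPKM was not used.

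Gene names and biotypes are those of the table, and 99.8% of its gene IDs were found in RefSeq (GRCm38.p6). Genes were kept by filterByExpr (17159 of them), scaled by TMM factors, and tested with edgeR 4.0.16 (quasi-likelihood) in R 4.3.3 over 18 libraries and 6 groups, without a block; an adjusted p under 0.05 was a call. SE were derived from the F statistic, and differences within a number used log2(CPM + 0.1). The numbers were taken to pair the WT libraries at levels 0 and 20, since same-numbered libraries correlated at 0.763, 0.622 and 0.672 after removal of group means, so the fit with the block is given where it changes a call. Genes were named by a rule: of those called, with a symbol and reaching 5 CPM on average at level 0 or 20, the 20 largest rises, the 15 largest falls, up to 5 called members per list (or the 3 smallest p as values), and fixed receptor and cytokine genes. The 37 lists are described by counts and medians, without a set test; the symbols of the histone list matched no gene. The comparison, the members and the lists were chosen with earlier results of these data known.

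Alternatives were DESeq2 1.42.0, limma-voom 3.58.1 (culture random), different scaling factors and expression filters, blocks, the mitochondrial share, TPM, a stricter threshold and each library or number left out. The code was tested on simulated counts with 200 changed genes, of which the main test recovered 101, with 4 false calls. It recovered 10 of 67 changes of 2-fold, 36 of 67 of 4-fold and 55 of 66 of 8-fold. No 2 WT libraries of level 0 or of level 20 agreed within sampling noise.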

Additional observations from a re-analysis of the deposited data

How the results depend on the processing

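No setting reversed the direction of a named gene that was called in the main fit or in that setting. Changes of sign in named genes called in neither were not counted. For WT level 20 against 0 (103 calls) DESeq2 gave 200 (182 higher, 18 lower), limma-voom with the culture as a random effect 201 (175 higher, 26 lower), the compared groups alone 53, TPM 59 and an adjusted p under 0.01 59. Leaving out a library or a number gave 22 to 101, with 22 without number 4120, 28 without number 414, 47 without WT level 0 number 414, 59 without WT level 0 number 4120 and 64 without WT level 20 number 414. Of 57 named called genes, 14 were called in every alternative that tested them: Ccl3, Dusp1, Egr2, Fos, Il13, Il6, Jun, Map3k8, Nfkbid, Nr4a2, Ovca2, Ptgs2, Snora31 and Tnf.

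With the replicate block in the compared groups 413 genes were called (305 higher, 108 lower), and none of the 57 lost its call. With a block for each culture in all 18 libraries 189 were called (172 higher, 17 lower). Chosen after seeing the data, the replicate block with a number left out gave 195 without 4120, 349 without 414 (83 lower) and 1985 without 6110 (809 lower); the cause was not tested.

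For WT level 60 against 20 (76 calls) library size alone gave 37 (7 higher, 30 lower, against 27 and 49), DESeq2 327 (147 higher, 180 lower), limma-voom 529 (236 higher, 293 lower), the compared groups 3, the replicate block 0, the culture block 585 (279 higher, 306 lower), the mitochondrial share as a covariate 128 (57 higher, 71 lower), TPM 31, an adjusted p under 0.01 37, and leaving out libraries 2 to 59. For the genotype difference (0 calls) no expression filter, a filter of 1 CPM in 3 libraries, DESeq2, limma-voom and the culture block each gave 1, and leaving out libraries 0 to 1. The causes were not tested. Counting depth limits genes near 0 at level 0: 3 counts are 0.150 CPM in the smallest library, and 14 of the 103 had a mean under 1 CPM there.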
